A study of Caenorhabditis elegans with 6 samples.

Results

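The regions described here are the arms of chromosomes II, III, IV and V that lie opposite the meiotic pairing centre in Caenorhabditis elegans. Each chromosome was divided into 3 parts of equal bin number, and the members were the right part of II, III and V and the left part of IV. This gave 225 bins of 100 kb out of 827 autosomal and 1005 nuclear bins: 51 on II, 46 on III, 58 on IV and 70 on V. The files give no coordinates, so positions here are nominal, with bins laid end to end in file order on build ce10 and counted from 1. On that scale the arms run from II 10200001 to 15300000, III 9200001 to 13800000, IV 1 to 5800000 and V 14000001 to 21000000. The last bin of a right arm may reach past the chromosome end.

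Pairing centres are clusters of short repeated motifs near one end of each C. elegans chromosome, where zinc-finger proteins bind and through which homologues find each other and attach to the nuclear envelope in meiotic prophase. The opposite end carries no such cluster. Outside meiosis, both arms of an autosome are poorer in expressed genes and richer in repeats than the centre, and in many animals such chromatin lies close to the nuclear lamina, the protein mesh beneath the nuclear membrane.

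The study used DamID, in which a fusion protein with the bacterial DNA adenine methyltransferase Dam marks the adenine of GATC wherever it comes near DNA, and the methylated fragments are cut with DpnI, amplified and sequenced. Entire animals at the L4 larval stage were used, so all tissues contributed. The labels describe males and hermaphrodites of 3 constructs, in which dam was joined with lmn-1, which encodes the nuclear lamin, with mel-28, which encodes a nuclear pore component, or with gfp, which encodes a fluorescent protein that binds no chromatin site by itself. All carry the construct under the hsp-16.41 heat-shock promoter without induction, which keeps its level low, and all were grown at 25 °C on E. coli. Each of the 6 samples is labelled as 20 animals, frozen with 10 worms per tube.

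The values are the ratios that the authors deposited for each bin, for the strains coded PMW123 and PMW179 over the strain coded PMW124 of the same sex. PMW124 had the ratio 1 wherever it had a value and is the denominator of both strains. The labels do not say which code belongs to which construct, so the strains are named by code, and it is not stated here which one carries the lamin or the pore fusion. A deposited table of read counts has 2 numbered columns for each code and sex. These columns could be matched to no single labelled sample and were not analysed here. The ratio table itself holds 1 ratio per bin, strain and sex, so no spread between columns, depth or test is given. Spread is therefore shown over bins, between chromosomes and between the sexes, which have separate numerators and denominators. Within a sex, PMW123 and PMW179 share the PMW124 denominator. Levels below are log2 ratios unless a linear ratio is named, and a median over bins stands with its interquartile range over bins.

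PMW123 had higher ratios on these arms than on the rest of the autosomes in both sexes. In males the 224 member bins with a value had a median log2 ratio of 0.47 (interquartile range -0.14 to 1.02), against -0.10 in the 601 other autosomal bins, a difference of 0.57 or 1.48-fold. In hermaphrodites the 222 member bins had a median of 0.44 (-0.19 to 1.09), against -0.09 in 594 other autosomal bins, a difference of 0.53 or 1.44-fold. Of the members, 164 of 224 in males (73.2%) and 155 of 222 in hermaphrodites (69.8%) lay above the median of the other autosomal bins. Among all autosomal bins 56.2% and 55.4% did so. The arms with the pairing centre had larger shares than the members, 79.1% in males and 75.8% in hermaphrodites. The excess was found on 4 of 4 member chromosomes in each sex. It ran from 0.21 on II to 1.02 on V in males and from 0.13 on III to 1.02 on V in hermaphrodites. Chromosome I had no member bins, and its left part counted among the other autosomal bins. That part had a median of 0.20 in males and -0.09 in hermaphrodites. In hermaphrodites 25 of its 50 bins lay above the median of the other autosomal bins, and in males 33. With it added to the members, the difference was 0.53 in males and 0.45 in hermaphrodites. V had the largest excess in both sexes, and without chromosome V the difference was 0.36 in males and 0.38 in hermaphrodites.

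Counted past a fold of 1.5, in either direction, members with a high PMW123 ratio were more frequent than among all autosomal bins. In males 100 of 224 members (44.6%) had a ratio of at least 1.5, against a background of 32.1% of autosomal bins, and 26 (11.6%) had a ratio of at most 0.667, against 28.4%. In hermaphrodites 101 of 222 members (45.5%) were at least 1.5, against a background of 30.6%, and 31 (14.0%) were at most 0.667, against 24.3%. The arms with the pairing centre had similar shares, with 47.6% of bins at 1.5 or more in males and 43.8% in hermaphrodites, and the centres of II to V had 8.44% and 10.3%.

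**Figure D1:**
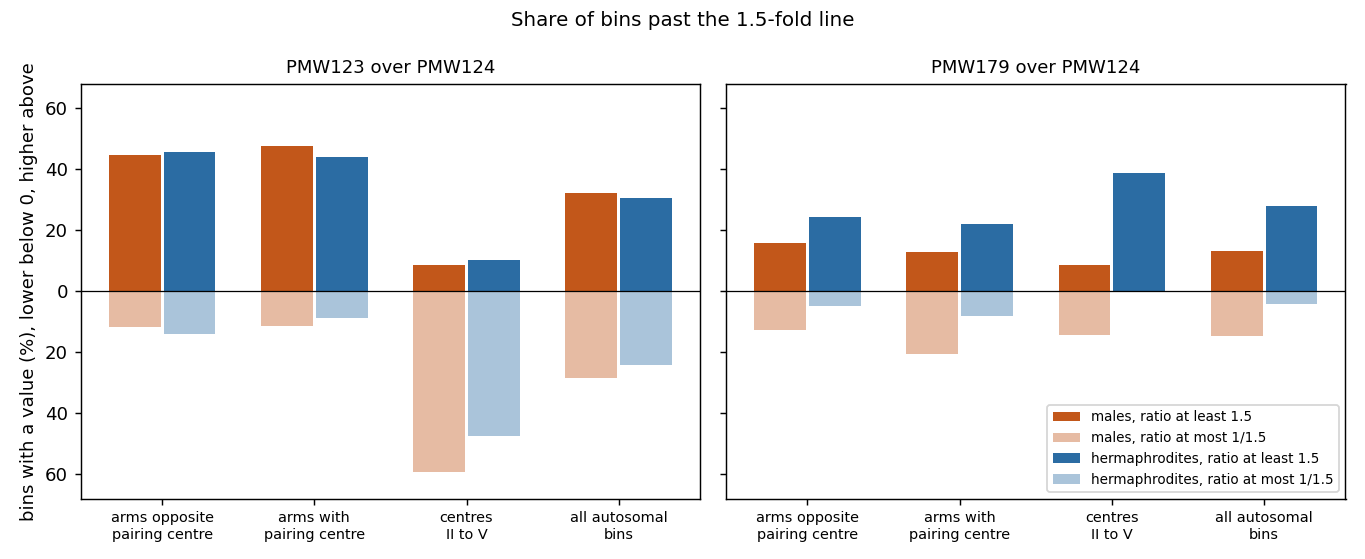
Bars show the percentage of bins with a value whose ratio over PMW124 was at least 1.5 (above 0, dark) or at most 1/1.5 (below 0, pale), for PMW123 (left) and PMW179 (right), with males left of hermaphrodites. For PMW123 the arms opposite the pairing centre reach 44.6% in males and 45.5% in hermaphrodites, near the 47.6% and 43.8% of the arms with the pairing centre and far above the centres.

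Set against the middle part of their own chromosomes, the arms were higher for PMW123 on 4 of 4 chromosomes in each sex. In males the difference averaged 1.25 (2.37-fold) and ran from 0.54 on IV to 1.65 on V, with 1.31 on II and 1.49 on III. In hermaphrodites it averaged 0.95 (1.93-fold) and ran from 0.74 on IV to 1.22 on V. Chromosome IV had the smallest contrast in both sexes. Its centre was the highest of the 4 centres, with a median of -0.27 in males and -0.23 in hermaphrodites.

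For PMW123 no consistent difference was seen between the arm opposite the pairing centre and the arm that carries it. The mean of arm minus pairing-centre arm over the 4 chromosomes was -0.11 in males and -0.04 in hermaphrodites, with 2 of 4 chromosomes above 0 in each sex. On II the arm opposite the pairing centre was lower in both sexes, with medians of 0.12 in males and 0.04 in hermaphrodites, against 0.61 and 0.42 on the arm with the pairing centre. On V it was higher in both, with 0.92 in males and 0.94 in hermaphrodites, against 0.67 and 0.77. On III and IV the sign changed with the sex: the difference was 0.25 in males and -0.12 in hermaphrodites on III, and -0.43 and 0.16 on IV. Interquartile ranges of the paired arms overlapped on each chromosome in each sex, and the mean turned above 0 without chromosome II (0.024 in males, 0.070 in hermaphrodites), in males also without chromosome IV (0.0013).

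**Figure D2:**
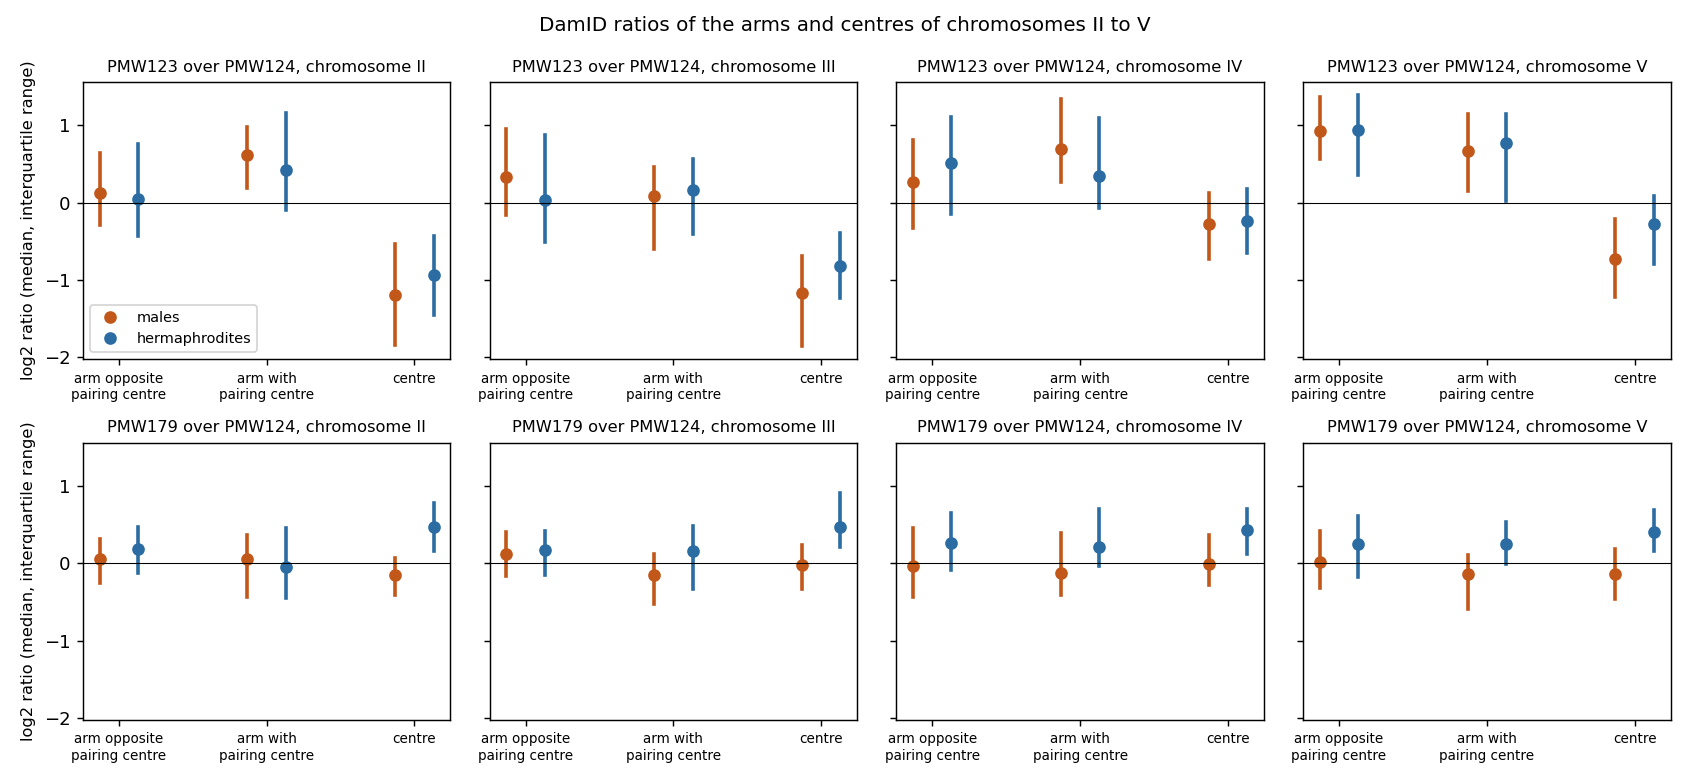
Points are median log2 ratios over PMW124 and lines are interquartile ranges over bins, for the arm opposite the pairing centre, the arm with it and the centre of chromosomes II to V, with males left of hermaphrodites. The upper row (PMW123) shows both arms above the centre on each chromosome, while the lower row (PMW179) stays close to 0 except for the higher centres in hermaphrodites.

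The arms differed among themselves for PMW123, and the right arm of V stood highest. Its median ratio was 1.90 in males and 1.91 in hermaphrodites (log2 0.92 and 0.94). In males 62 of 69 bins (89.9%) and in hermaphrodites 61 of 68 (89.7%) lay above the median of the other autosomal bins. On the arm of V with the pairing centre 82.6% and 82.4% did so, and among all autosomal bins 56.2% and 55.4%. In males 48 of 69 bins of this arm (69.6%) had a ratio of at least 1.5, and in hermaphrodites 45 of 68 (66.2%). Of 68 bins with a value in both sexes, 39 (57.4%) were at least 1.5 in both and 1 was at most 0.667 in both. All autosomal bins had 32.1% at 1.5 or more in males, 30.6% in hermaphrodites and 19.7% in both. The arm of V with the pairing centre, the nearest counterpart, had 55.1% in males and 57.4% in hermaphrodites.

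The left arm of IV came next in hermaphrodites, with a median ratio of 1.42 (log2 0.51), but had 1.21 in males (log2 0.27). The right arm of III had the reverse, with 1.26 in males (0.33) and 1.03 in hermaphrodites (0.04). The right arm of II had 1.09 in males and 1.03 in hermaphrodites, the lowest level in males and level with III in hermaphrodites. Apart from V, the order of the arms thus depended on the sex, and the interquartile ranges of II, III and IV overlapped throughout.

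Taken over the 4 arms, the PMW123 ratio was lower near the centre and higher further out. The course differed between chromosomes, and IV had no such gradient in males. Over all 4 arms cut into 5 steps from the inner border to the chromosome end, the median log2 ratio in males was 0.07, 0.29, 0.87, 0.66 and 0.65. In hermaphrodites the same steps had -0.06, 0.26, 0.62, 0.82 and 0.68. Each step held 42 to 47 bins with a value. The other autosomal bins had -0.10 in males and -0.09 in hermaphrodites. The innermost step was the lowest in both sexes, and the outer 3 steps lay between 0.62 and 0.87 in both sexes.

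On V the level climbed through 0.55, 0.88, 1.29 and 1.53 in males and 0.38, 0.96, 1.13 and 1.51 in hermaphrodites, and was lower in the outermost step, with 0.79 and 0.90. The highest stretch of 10 consecutive bins of this arm lay at V 18700001 to 19700000 in males, with a median of 3.23-fold over PMW124, and at V 18400001 to 19400000 in hermaphrodites, with 3.49-fold. The stretch chosen in males had 1.98-fold in hermaphrodites, and the one chosen in hermaphrodites had 2.88-fold in males. The lowest stretch was the same in both sexes, V 14200001 to 15200000 beside the inner border, with 1.34-fold in males and 1.22-fold in hermaphrodites.

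On II the arm fell into an inner and an outer portion. The first 2 steps had median log2 ratios of -0.26 and -0.23 in males and -0.19 and -0.88 in hermaphrodites, and the next 3 had 0.60, 0.45 and 0.52 in males and 0.32, 0.79 and 0.46 in hermaphrodites. The lowest stretch of 10 bins was the same in both sexes, II 10800001 to 11800000, with 0.706-fold in males and 0.528-fold in hermaphrodites. The medians of the inner steps of the right arm of II were thus below a ratio of 1 in both sexes, as was the median of the centre of that chromosome, although single bins there lay above 1.

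On III the innermost step had -0.72 and the outermost 0.85 in males, and in hermaphrodites these steps had -0.49 and 0.88. The second step differed between the sexes, with 0.32 in males and -0.36 in hermaphrodites. On IV the 5 steps in males had 0.31, 0.05, 0.31, 0.42 and 0.27, with no gradient. In hermaphrodites they had 0.35, 0.21, 0.68, 0.59 and 0.56, lower in the inner steps than further out. The highest stretch of 10 bins of that arm lay in its interior, at IV 1900001 to 2900000 in males (2.03-fold). In hermaphrodites it lay at IV 2100001 to 3100000 (2.21-fold). The male stretch had 2.21-fold in hermaphrodites and the hermaphrodite stretch 1.85-fold in males. Each arm has a highest stretch by construction. Those of II and V in both sexes and of III in males also lay in the interior, and that of III in hermaphrodites reached the chromosome end. The lowest stretch of IV lay at IV 3700001 to 4700000 in males (0.739-fold). In hermaphrodites the lowest lay at IV 2800001 to 3800000 (0.841-fold), which overlaps the highest.

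**Figure D3:**
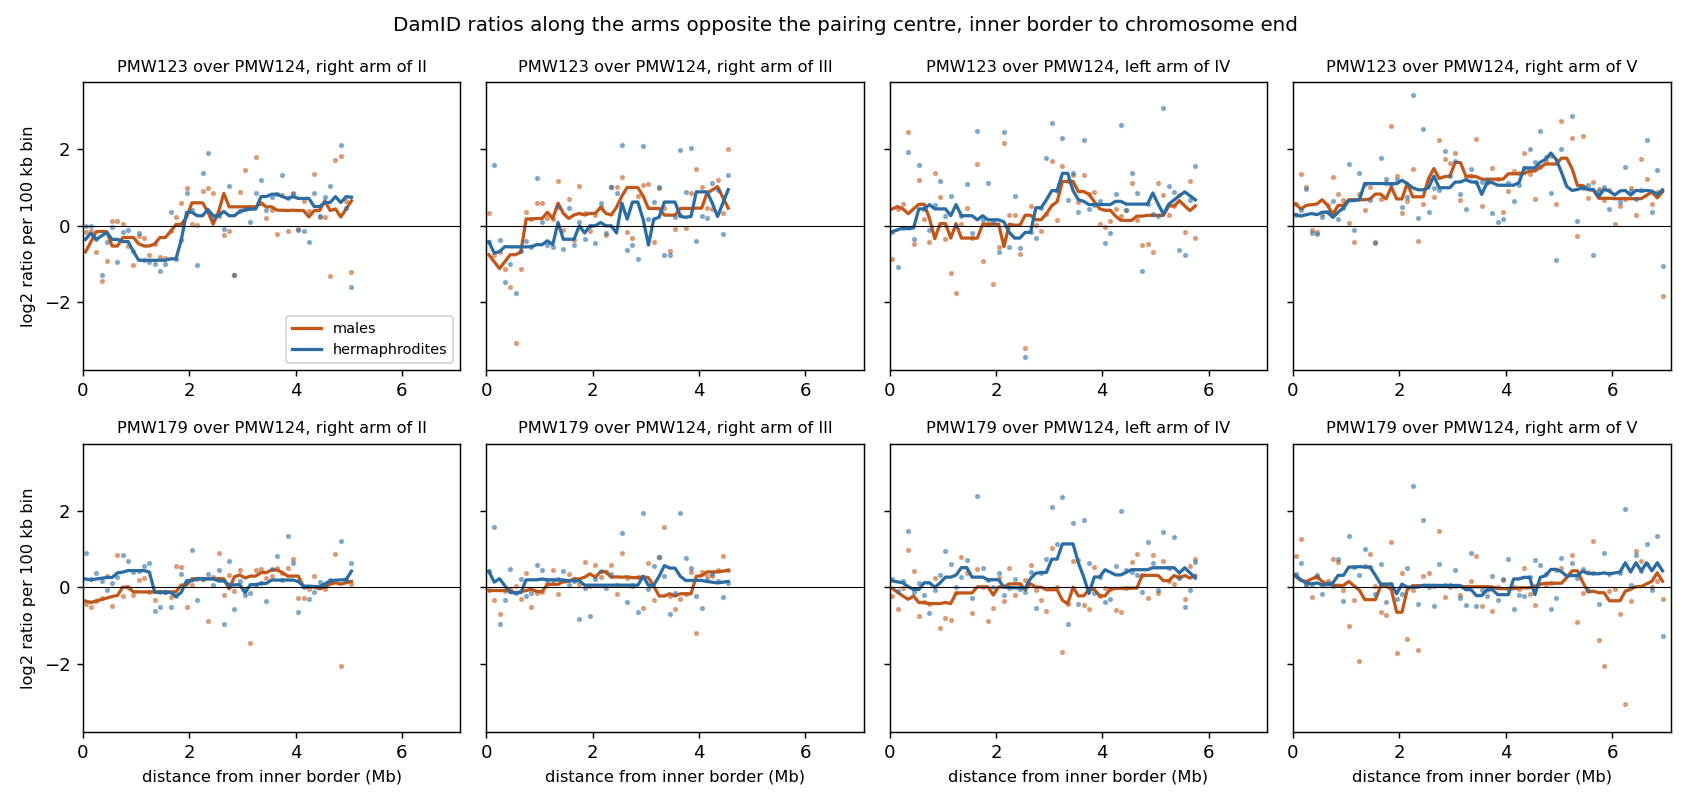
Each point is the log2 ratio over PMW124 of 1 bin of 100 kb, plotted by its distance in Mb from the inner border of the arm, and lines are running medians over 9 bins, for males and hermaphrodites. The upper row (PMW123) shows the climb along V, the step on II and the high interior stretch of IV in both sexes. The lower row (PMW179) shows no course shared by the sexes.

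Bins at the ends of the arms did not share a level. In the authors' deposited table the last bin had PMW123 ratios of 0.434 in males and 0.332 in hermaphrodites on II, 0.278 and 0.485 on V, and 3.98 and 2.51 on III. The first bin of IV had 0.800 in males and 2.95 in hermaphrodites. The end bins of II and V were thus below 0.667 in both sexes, while that of III was above 1.5 in both.

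At the inner border, the bins just inside and just outside had PMW123 ratios between 0.550 and 1.48. In the authors' deposited table the bin just inside had 0.897 in males and 0.992 in hermaphrodites on II, against 0.855 and 0.805 in the bin just outside. On III the values were 1.26 and 0.747 inside, against 0.838 and 0.900 outside. On IV they were 0.550 and 0.896 inside, against 0.829 and 0.683 outside, and on V 1.48 and 1.22 inside, against 0.875 and 1.23 outside.

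The PMW123 profile of the arms was alike in the sexes, bin by bin. Across 222 member bins with a value in both sexes, Pearson r was 0.65 and Spearman rho 0.63. By arm r was 0.67 on II, 0.57 on III, 0.67 on IV and 0.54 on V. The likeness was not particular to these arms: r was 0.66 over the other autosomal bins, 0.59 on the arms with the pairing centre and 0.56 on the centres. These are correlations across neighbouring bins of the same genome, which share sequence, and are given as descriptions only. Of the 99 members at 1.5 or more in males and the 101 in hermaphrodites, 70 were in both lists, which is 70.7% of the male list and 69.3% of the hermaphrodite list. Members high in both sexes made up 31.5% of the 222, against a background of 19.7% of all autosomal bins. A further 15 of the 222 members (6.76%) were at most 0.667 in both sexes, against a background of 16.8% of all autosomal bins. By arm these were 7 of 50 bins on II, 5 of 46 on III, 2 of 58 on IV and 1 of 68 on V, each a smaller share than that background.

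**Figure D4:**
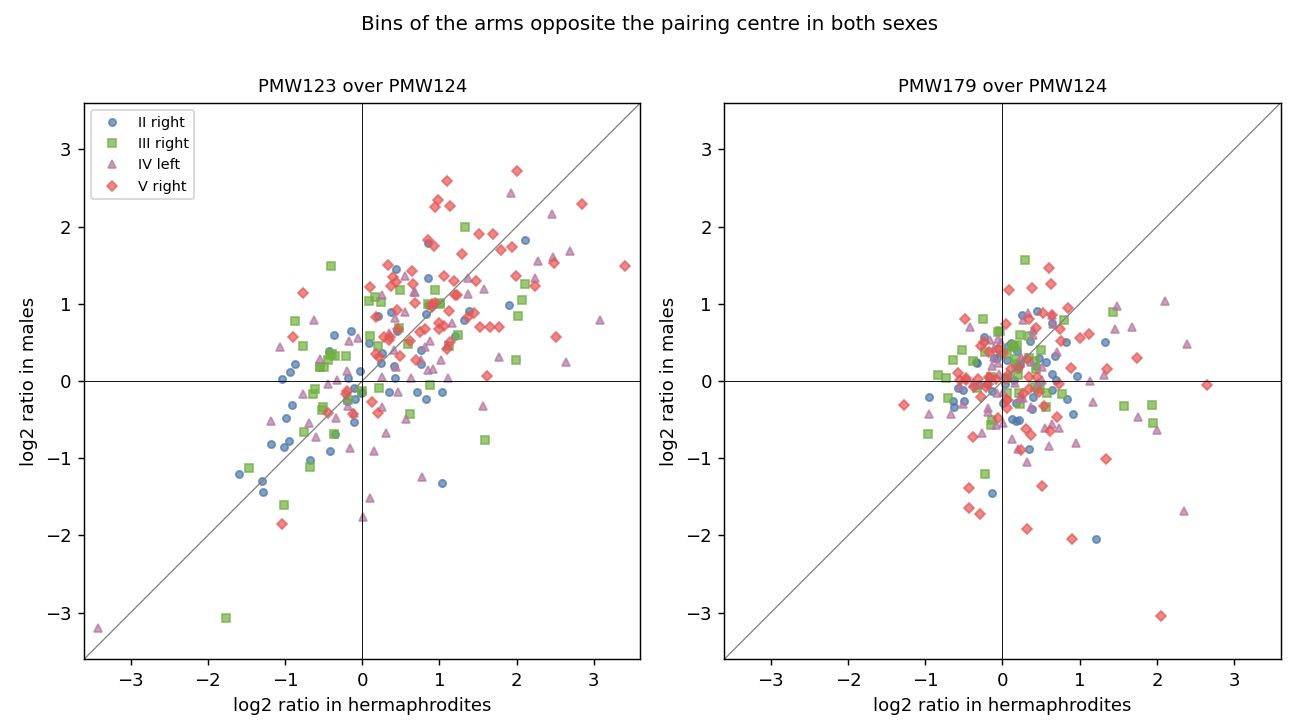
Each point is 1 member bin, with its log2 ratio over PMW124 in males on the vertical and in hermaphrodites on the horizontal axis, coloured by arm, and the grey line marks equal values. PMW123 (left) spreads along the line with the bins of V in the upper right, while PMW179 (right) forms a cloud around 0 with no slope.

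Among single bins, IV 3200001 to 3300000 was the lowest PMW123 member in males and in hermaphrodites. The authors' deposited table gives it 0.109 in males and 0.0933 in hermaphrodites, while III 9700001 to 9800000 was second lowest in both, with 0.120 and 0.293. In the same table the highest members in males were V 19000001 to 19100000 (6.59, and 4.00 in hermaphrodites), V 15800001 to 15900000 (6.03 and 2.14) and IV 5400001 to 5500000 (5.40 and 3.79). Each of these 3 bins was above 2 in hermaphrodites too.

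The highest in hermaphrodites in the authors' deposited table had 2.81 in males and 10.6 in hermaphrodites (V 16200001 to 16300000), 1.73 and 8.44 (IV 600001 to 700000), and 4.90 and 7.22 (V 19200001 to 19300000). All 3 exceeded 1.5 in males. The bin at V 19100001 to 19200000, between bins ranked highest, was listed as Inf in both sexes for PMW123 and entered no median. For PMW179 it was listed as NA in males and Inf in hermaphrodites. Of the other members with no finite value above 0, II 14900001 to 15000000 and V 20000001 to 20100000 were listed as Inf in hermaphrodites for both strains, and V 18600001 to 18700000 was listed as 0 for PMW179 in males.

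The arms hardly differed between males and hermaphrodites for PMW123. The median of male minus hermaphrodite log2 ratio was -0.01 over 222 members, with 108 above 0, against -0.04 over 594 other autosomal bins. By arm it was 0.0015 on II, 0.19 on III, -0.30 on IV and 0.05 on V. Relative to the other autosomal bins the arms differed by 0.03, and the sign turned without chromosome III (-0.11) or without chromosome V (-0.025). The interquartile range over members, from -0.55 to 0.50, was wide against these medians.

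The bins that departed most between the sexes for PMW123 lay on several arms. In the authors' deposited table V 19600001 to 19700000 had 2.20 in males and 0.589 in hermaphrodites, a 3.74-fold higher ratio in males, and III 13100001 to 13200000 had 2.81 and 0.756. On III 12000001 to 12100000 the male ratio was 1.71 and the hermaphrodite ratio 0.548. Lower in males were IV 1400001 to 1500000, with 1.19 in males and 6.21 in hermaphrodites, II 14800001 to 14900000, with 0.399 and 2.04, and III 9300001 to 9400000, with 0.591 and 3.01 in the authors' deposited table. Each is a single bin without a replicate. For PMW179, which shares the PMW124 denominator within a sex, IV 1400001 to 1500000 had 0.643 in males and 4.01 in hermaphrodites. III 9300001 to 9400000 had 0.798 and 2.97, V 19600001 to 19700000 had 2.31 and 1.30, and III 12000001 to 12100000 had 1.21 and 0.642. II 14800001 to 14900000 was nearly level, at 1.11 and 1.15, and III 13100001 to 13200000 went the other way, at 0.435 and 0.852. The part of the denominator was not tested.

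PMW179 had nearly the same level on these arms as on the rest of the autosomes. In males the 223 members with a value had a median log2 ratio of 0.04 (interquartile range -0.29 to 0.41), against -0.05 in 600 other autosomal bins. In hermaphrodites 222 members had 0.21 (-0.14 to 0.57), against 0.29 in 594 other bins. The difference was 0.09 in males, above 0 on 4 of 4 chromosomes, and -0.08 in hermaphrodites, below 0 on 4 of 4. Without chromosome III the difference in males was 0.045. Both are small against the spread over bins, and neither exceeded 0.17 in size on any chromosome. That spread describes single bins and does not measure how uncertain a difference of medians is.

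The share of members past 1.5-fold for PMW179 was near the background in both sexes. In males 35 of 223 members (15.7%) had a ratio of at least 1.5, against 13.1% of autosomal bins, and 28 (12.6%) were at most 0.667, against 14.8%. In hermaphrodites 54 of 222 (24.3%) were at least 1.5, against 27.9%, and 11 (4.95%) were at most 0.667, against 4.17%. The centres of II to V had 8.44% of bins at 1.5 or more in males and 38.8% in hermaphrodites. Members at 1.5 or more in both sexes numbered 15 of 221, or 6.79%, against 5.52% of autosomal bins, and these were 44.1% of the male list and 28.3% of the hermaphrodite list.

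Against the centres, PMW179 differed in sign between the sexes. The mean of arm minus centre was 0.13 in males, with 3 of 4 chromosomes above 0 (IV at -0.02), and -0.22 in hermaphrodites, with 0 of 4 above 0 and values from -0.30 on III to -0.15 on V. In hermaphrodites 0 of 224 centre bins had a ratio of 0.667 or less. Against the arm with the pairing centre, PMW179 was slightly higher, by a mean of 0.13 in males (4 of 4 chromosomes above 0, from 0.0037 on II to 0.27 on III) and 0.07 in hermaphrodites (3 of 4, from -0.0064 on V to 0.22 on II). Without chromosome II the mean in hermaphrodites was 0.020, and without chromosome III that in males was 0.087. With the border at 1/4 of the chromosome the means were larger, 0.23 in males and 0.14 in hermaphrodites. These differences were smaller than the interquartile range over bins of any of these arms. That range describes single bins and does not measure how uncertain these means are.

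The 4 arms lay close together for PMW179, unlike for PMW123. Their median ratios were 1.04 on II, 1.09 on III, 0.981 on IV and 1.01 on V in males, and 1.13, 1.13, 1.21 and 1.19 in hermaphrodites. The right arm of V, the highest for PMW123, lay within this narrow range in both sexes. Along the arms the 5 steps of PMW179 ran from -0.15 to 0.16 in males, lowest in the innermost step and highest in the outermost, and between 0.06 and 0.28 in hermaphrodites in no order.

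Likeness between the sexes was not seen for PMW179 on the arms. Over 221 members Pearson r was -0.016 and Spearman rho 0.098, and on single arms r lay between -0.06 and 0.05. Elsewhere r was low too, at 0.055 over the other autosomal bins, 0.14 on the arms with the pairing centre and 0.016 on the centres. Averaging blocks of 5 neighbouring bins, a step added after the data were seen, gave r = -0.26 over 47 blocks for PMW179, against r = 0.80 for PMW123.

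The median sex difference of PMW179 on the arms was -0.09 over 221 bins, against -0.35 over 594 other autosomal bins, so that the arms were 0.26 higher in males relative to the rest (1.20-fold). The excess was above 0 on 4 of 4 chromosomes, with 0.33 on II, 0.37 on III, 0.02 on IV and 0.31 on V. The centres had a median sex difference of -0.57 and the arms with the pairing centre -0.23. With means over bins in place of medians the excess of the arms was 0.13, and without chromosome V it was 0.18.

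The PMW179 bins at the extremes differed between the sexes. In the authors' deposited table the highest members in males were III 12500001 to 12600000 (2.97, and 1.22 in hermaphrodites), V 16700001 to 16800000 (2.76 and 1.52) and V 14100001 to 14200000 (2.39 and 1.54). The lowest above 0 in males were V 20200001 to 20300000, with 0.121 in males and 4.16 in hermaphrodites, II 15000001 to 15100000, with 0.242 and 2.32, and V 19800001 to 19900000, with 0.242 and 1.87 in the authors' deposited table. These low male bins all lie in the outermost step of their arm, and all had 1.87 or more in hermaphrodites. II 15000001 to 15100000 and V 19800001 to 19900000 have the same deposited male ratio, 0.241905. The outermost steps of these arms also hold bins listed as Inf in hermaphrodites, II 14900001 to 15000000 and V 20000001 to 20100000. Whether few reads lie behind the low male ratios was not tested.

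In hermaphrodites the highest PMW179 members in the authors' deposited table were V 16200001 to 16300000 (0.961 in males and 6.30 in hermaphrodites), IV 4100001 to 4200000 (1.39 and 5.24) and IV 2500001 to 2600000 (0.311 and 5.10). The same bins had PMW123 ratios of 10.6, 5.54 and 4.86 in hermaphrodites, and these rest on the same PMW124 values. The lowest in hermaphrodites were V 20900001 to 21000000 (0.806 and 0.412), III 9400001 to 9500000 (0.623 and 0.511) and IV 2400001 to 2500000 (0.742 and 0.515). The bins that were highest in males relative to hermaphrodites for PMW179 were V 17400001 to 17500000, with 1.75 in males and 0.711 in hermaphrodites, III 12500001 to 12600000, given above, and IV 2200001 to 2300000, with 1.63 and 0.746 in the authors' deposited table. The interior maximum of PMW123 at IV 2100001 to 3100000 was also the highest stretch of that arm for PMW179 in hermaphrodites, at 1.91-fold, whereas PMW179 had 0.871-fold there in males.

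Set directly against each other, which removes the shared denominator where a ratio is of single values, PMW123 exceeded PMW179 on these arms. The scaling of the ratios is not given, so an offset between the strains may enter these medians. It drops out where the arms are set against other bins. Over all autosomal bins PMW123 had a median of 0.13 in males and 0.07 in hermaphrodites, and PMW179 had -0.03 and 0.27. The median of PMW123 minus PMW179 was 0.36 in males (1.28-fold, 151 of 223 bins above 0) and 0.22 in hermaphrodites (1.16-fold, 137 of 222). In the other autosomal bins it was -0.08 in males and -0.42 in hermaphrodites, so the arms stood 0.44 and 0.64 higher, on 4 of 4 chromosomes in each sex. The arms with the pairing centre had 0.65 in males and 0.34 in hermaphrodites, and the centres -0.82 and -0.99.

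The gap between the strains was widest on V. There PMW123 exceeded PMW179 by 1.04 in males (2.06-fold, 59 of 68 bins) and by 0.63 in hermaphrodites (1.54-fold, 55 of 68). On II the strains were near each other, with 0.10 in males (27 of 51 bins above 0) and -0.14 in hermaphrodites (23 of 50). On III the difference was 0.16 in males and 0.04 in hermaphrodites, and on IV 0.30 and 0.10. Any offset between the strains enters these values by arm too. Without chromosome V the excess of the arms over the other autosomal bins in males was 0.28.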

How the data were processed

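DamID libraries of 6 labelled samples, 1 per construct and sex, were analysed through the table of linear ratios per 100 kb bin that the authors deposited. The submitters' processing notes name build ce10 and the tools SAMtools, Bowtie and cutadapt. The sources used here give neither their versions and roles nor the scaling of the ratios. A deposited table of read counts has 12 columns named by strain code, sex and number, which could be matched to no single labelled sample; these 12 columns were not used, so values per column, scaled to autosomal totals, are not given. The chromosome column alone was read, to number bins. Since the counts were not analysed here, no depth, spread between columns or interval is given.

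The log2 of each ratio was taken with no pseudocount (Python 3.11.15, numpy 2.4.6, pandas 2.3.3). Bins with NA, Inf or 0 entered no value. Members, contrasts by medians, 5 steps along each arm and stretches of 10 bins were computed as described above. The contrasts of arm with centre and with pairing-centre arm were also run on simulated data. The simulation had equal shifts on each chromosome, less scatter between bins than these data and no bins without a value. It therefore checks the calculation only. Named bins were the 3 highest and 3 lowest members per strain and sex, and per sex difference, with border bins. The other bins given were singled out after their values were seen. The members and contrasts were chosen with earlier results of these data known. No test across samples was made. Alternatives were arm borders at 1/4, means, bins listed as 0 or Inf kept, a pseudocount of 0.1, each chromosome left out, the left part of I added, 5 end bins left out, and bins with a value in all comparisons.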

Additional observations from a re-analysis of the deposited data

Results flagged for a closer look

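For PMW179 the level of the arms relative to the other autosomal bins lay above 0 in males and below 0 in hermaphrodites, at a log2 difference of 0.088 in males against -0.078 in hermaphrodites, each on 4 of 4 chromosomes. Arm minus centre likewise was 0.13 in males and -0.22 in hermaphrodites. The difference between the sexes was not tested, since the ratio table has 1 value per sex for a bin and the count columns were not used. Each sex has its own PMW124 denominator, and its part in these signs was not tested.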

How the results depend on the processing

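Each of 16 contrasts was recomputed under 11 alternatives. Of the 176 values, 170 kept their sign and moved by less than the SD between the 4 chromosomes. That SD stood in for the missing replicate spread. Arm minus centre and arm minus pairing-centre arm are means over the same 4 chromosomes. Leaving a chromosome out could not move such a mean by as much as that SD, so there only a change of sign could show. The count of 170 includes these values and is no measure of robustness for them beyond the sign. The other 6 of the 176 values changed sign, the cause was not tested, and all were near 0. For PMW123, arm minus pairing-centre arm became 0.024 in males and 0.070 in hermaphrodites with chromosome II left out, 0.0013 in males with IV left out, and 0.0021 in hermaphrodites with means over bins. The PMW123 sex difference of the arms became -0.11 with III left out and -0.025 with V left out. Over the alternatives, arm minus centre of PMW123 ranged from 1.11 to 1.48 in males and from 0.86 to 1.02 in hermaphrodites, and the arm level from 0.36 to 0.75 and from 0.38 to 0.72. For PMW179 the arm level ranged from 0.05 to 0.13 in males and from -0.10 to -0.06 in hermaphrodites. For PMW179 the border at 1/4 moved arm minus pairing-centre arm to 0.23 in males and 0.14 in hermaphrodites and arm minus centre in males to 0.20, and adding the left part of I moved the arm level in males to 0.13. No replicate was left out. No paired analysis was made, because the numbered count columns were not used and the ratio table has no replicate numbers. Depth behind single bins was not analysed here.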
